A study of Homo sapiens with 12 samples.

Results

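The genes described here are MYC and 42 factors that build ribosomes, 43 genes of the 22650 listed in an RNA-seq study of human pancreatic ductal adenocarcinoma cells of 2 lines. They were chosen by name, from their known roles. The rule uses no measured values, but the choice was made with earlier results of these data known. By role they comprise 1 transcription factor (MYC), 4 genes of RNA polymerase I and its partners, 3 of the box C/D and 3 of the box H/ACA small nucleolar ribonucleoproteins, 14 small-subunit and 13 large-subunit processing factors, 4 nucleolar proteins with several roles and 1 enzyme of pyrimidine synthesis (CAD). All 43 were listed in every library and passed the filter on low values.

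The study compared wild-type cells with ASAP2 knockout cells in each of the lines Panc1 and MiaPaCa2, with 3 libraries in each of the 4 groups. ASAP2 encodes a GTPase-activating protein for Arf proteins. The labels give genotype and line, and no treatment, time, clone number or way of making the knockout, so a change shared by a knockout group and a change peculiar to 1 knockout clone cannot be told apart. Nothing in the labels says that replicate libraries came from separate cultures, so p-values measure the spread between these libraries, which may be technical.

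Values are FPKM, fragments scaled to transcript length and to the mapped fragments of the library, so a level can be set beside that of another gene, and the number of reads behind it is unknown. Each library listed 17958 to 19105 genes, and libraries of a group correlated across genes at r = 0.9936 to 0.9971. ASAP2 mRNA averaged 36.9 FPKM in the wild-type libraries of Panc1 and 13.8 FPKM in its knockout libraries (log2 difference -1.36, adjusted p = 1.46e-08), but 13.5 and 12.3 FPKM in MiaPaCa2 (-0.13, adjusted p = 0.197), so the MiaPaCa2 libraries labelled knockout were not set apart by the mRNA of the targeted gene. KRT8, KRT18 and VIM were highly expressed in every group (KRT18 lowest, at a mean of 309.9 FPKM in wild-type Panc1), whereas EPCAM, a defining epithelial gene, was at 0 in MiaPaCa2 and CDH1 stood at 0.01 FPKM there. The leukocyte gene CD3E and the fibroblast gene DCN were listed in no library. CD68, on the leukocyte list, averaged 175 and 164 FPKM in wild-type and knockout Panc1 and 26.7 and 18.7 FPKM in MiaPaCa2. LYZ, on the same list, averaged 28.7 FPKM in wild-type against 122 FPKM in knockout MiaPaCa2, and COL1A1, on the fibroblast list, 89.3 and 314 FPKM in wild-type and knockout Panc1; their part in the results was not tested. In bulk RNA such as this, fewer cells with a transcript and less of it per cell cannot be told apart.

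A ribosome is assembled in the nucleolus, where RNA polymerase I transcribes a long precursor of ribosomal RNA. Small nucleolar RNAs, held in box C/D and box H/ACA particles, guide chemical modification of this precursor, and large sets of processing factors cut and fold it into the small and the large subunit while ribosomal proteins join. MYC, paired with MAX, binds the E-box sequence CACGTG and activates many of these genes, and a raised output of ribosomes is a well-known feature of dividing cancer cells.

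The E-box is a sequence that some of these promoters share. It was searched, as CACGTG, which reads the same on both strands, in the 300 bases that run from 250 before to 50 after the transcription start in RefSeq (GRCh38.p14). Of the 35 members with an entry, 12 held it (34.3%). The share was 32.5% for 83 other ribosome biogenesis factors, 4.69% for 64 cytosolic ribosomal protein genes, 10.3% for the 9917 tested genes with an entry, and 7.43% for all 27305 promoters in the table. A match is a description of these letters and does not show binding. The windows below are printed because they let the reader compare the sequence around each E-box, which is in capitals, on the strand of the gene, with GRCh38.p14 positions.
FBL (chr19:39846358-39846383, minus strand): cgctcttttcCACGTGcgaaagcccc
UTP4 (chr16:69132623-69132648, plus strand): agcgcgcgcgCACGTGgggccggggc
UTP20 (chr12:101280085-101280110, plus strand): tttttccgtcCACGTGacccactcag
WDR43 (chr2:28894660-28894685, plus strand): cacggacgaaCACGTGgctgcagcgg
NAT10 (chr11:34105604-34105629, plus strand): tgcgcttgcgCACGTGctgtctacca
RRP9 (chr3:51941894-51941919, minus strand): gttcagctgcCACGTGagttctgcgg
NOP14 (chr4:2963376-2963401, minus strand): cgcggcccggCACGTGtcttagggta
PNO1 (chr2:68157887-68157912, plus strand): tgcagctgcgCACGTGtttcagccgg
BYSL (chr6:41921517-41921542, plus strand): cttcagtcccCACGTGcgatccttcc
PES1 (chr22:30591882-30591907, minus strand): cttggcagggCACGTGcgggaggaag
NOP2 (chr12:6568242-6568266, minus strand): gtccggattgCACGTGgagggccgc
MRTO4 (chr1:19251809-19251834, plus strand): tcttccgccgCACGTGgattcagcgc
All 12 matches lay close to the start, from 16 bases before it in UTP4 to base 36 of the transcript in NOP2. Of the 22 members with an entry that were lower in knockout Panc1, 6 held it (27.3%), and of the 13 others 6 did (46.2%). The 250 bases before the start of UTP20, whose fall in Panc1 held in every alternative run, are printed whole to show where in the promoter the E-box lies.
UTP20 (chr12:101279855-101280104, plus strand): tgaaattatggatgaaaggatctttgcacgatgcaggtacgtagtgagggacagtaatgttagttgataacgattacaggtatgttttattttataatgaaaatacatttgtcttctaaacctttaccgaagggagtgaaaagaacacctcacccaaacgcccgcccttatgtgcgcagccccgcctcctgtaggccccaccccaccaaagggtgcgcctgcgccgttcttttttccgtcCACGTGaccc

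MYC itself rose in both lines. It is on chromosome 8 (GRCh37, 8:128747680-128755197, plus strand). In Panc1 it read 19.5, 18.9 and 19.4 FPKM in the wild-type libraries and 28.7, 28.2 and 25.4 FPKM in the knockout libraries. All 3 knockout libraries were above all 3 wild-type libraries, a rise of 42.4% in the mean (log2 difference 0.49, SE 0.05, adjusted p = 3.87e-06 by limma with Benjamini-Hochberg adjustment over all genes tested, as for every adjusted p here). Differences were taken between means of log2(FPKM + 1), where the added 1 shrinks the change of genes at low levels. MiaPaCa2 started from a higher level, with 48.5, 46.4 and 45.6 FPKM in wild-type and 54.2, 54.3 and 57.9 FPKM in knockout libraries. The groups again did not overlap, and the mean was 18.4% higher (0.24, adjusted p = 0.00301). The rise was larger in Panc1 than in MiaPaCa2 on the log2 scale (difference between the lines 0.25, SE 0.07, adjusted p = 0.0096). The level in wild-type MiaPaCa2 was 2.43 times that in wild-type Panc1.

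The partners and antagonists of MYC were mixed. Of 15 genes of this network 13 were tested, of which 2 rose and 5 fell in Panc1, and 4 rose and 4 fell in MiaPaCa2. Over all genes tested, 21.8% rose and 41.6% fell in Panc1, and 17.8% rose and 16.3% fell in MiaPaCa2. MXI1, a repressor that competes with MYC for MAX, rose in both lines, from 1.09 to 3.5 FPKM in Panc1 (log2 difference 1.10, adjusted p = 9.96e-07) and from 1.92 to 3.84 FPKM in MiaPaCa2 (0.72, adjusted p = 0.000141). MAX moved by little: -0.18 in Panc1 (adjusted p = 0.00781) and 0.14 in MiaPaCa2 (adjusted p = 0.0424). Its Panc1 call was lost on median-ratio scaling (adjusted p = 0.296), quantile normalization and relative to the chromosome, and its MiaPaCa2 call was lost in 11 of the 17 alternatives, 5 of them with 1 library left out (adjusted p up to 0.135 without knockout replicate 2). In Panc1, MXD4, another MAX-binding repressor, rose from 8.25 to 12.9 FPKM (0.59), and MXD1, of the same family, fell from 5.0 to 2.54 FPKM (-0.76).

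In knockout Panc1 most ribosome biogenesis factors were lower while MYC was higher. Of the 43 members, 26 fell (60.5%), 5 rose (MYC, FBL, RRP12, BYSL and CAD) and 12 did not pass the test. Over all 13340 genes tested, 41.6% were called lower, 21.8% higher and 63.5% either way, so the share of members that fell stood above a background that itself leaned down. The median log2 difference of the members was -0.23, against -0.10 for all genes, and 34 of 43 were negative. When libraries were scaled by the median ratio, which takes the median of all genes to -0.01, the split was 18 lower and 9 higher (41.9% of members lower, against 31.0% of all genes). Relative to the median of their own chromosome, 17 members were lower and 10 higher (39.5% and 23.3%, against 29% and 32.5% of all genes). The groups did not overlap for 34 members, 27 of them lower in the knockout (70.1% of all genes, 45.3% lower).

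**Figure D1:**
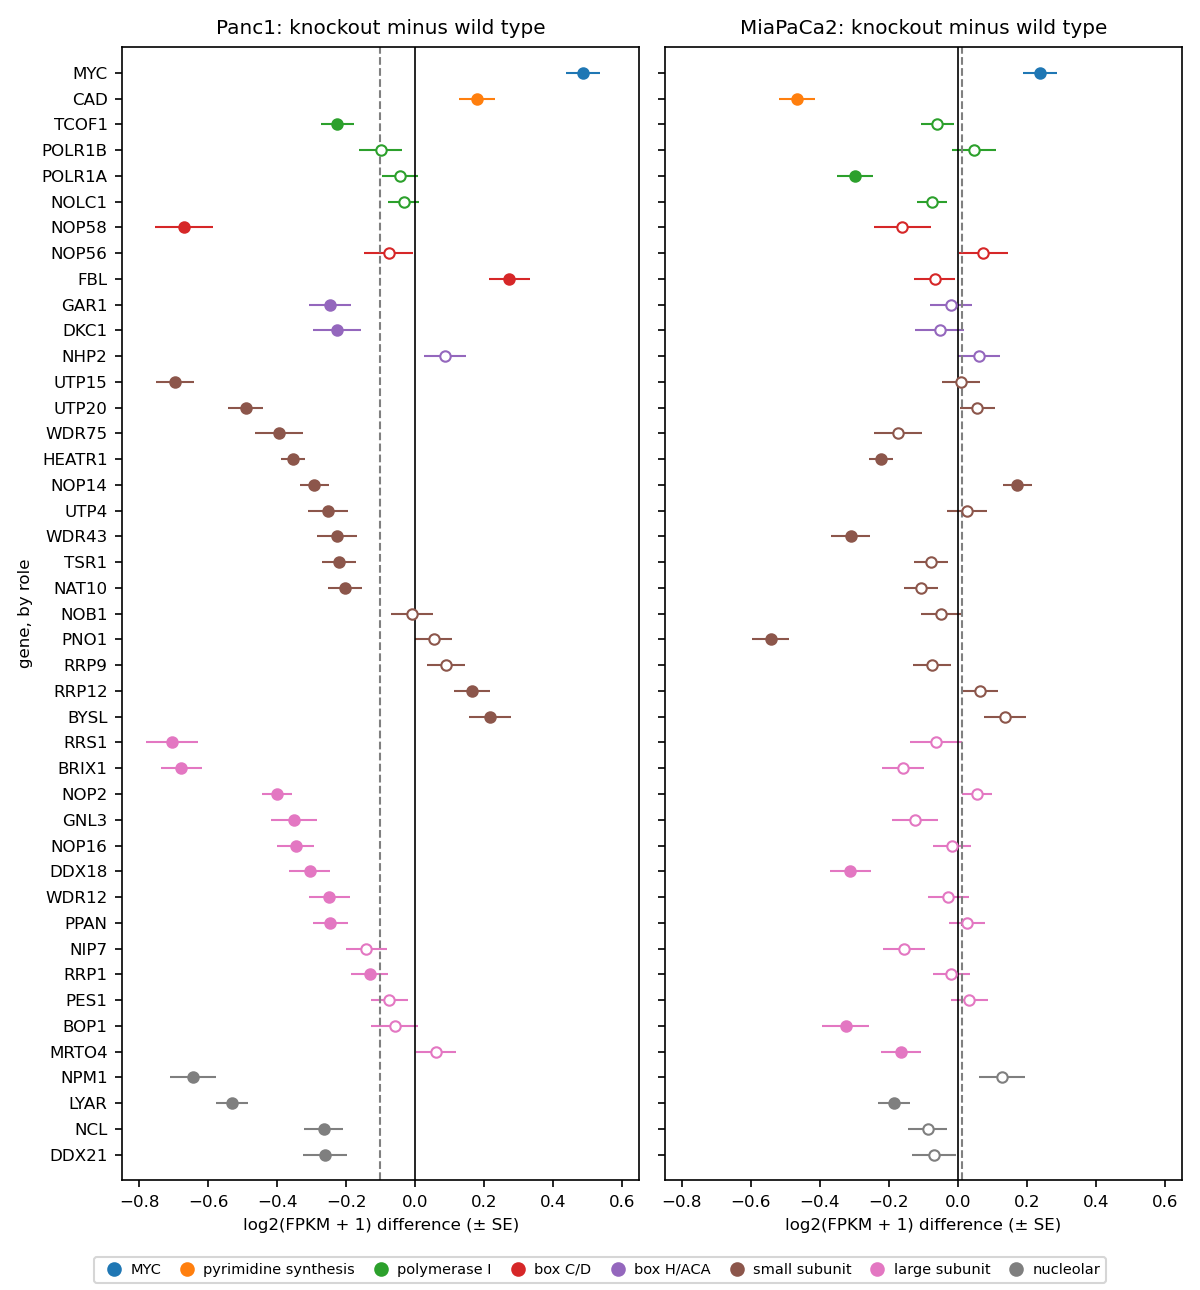
Knockout minus wild-type difference of each of the 43 genes on the log2(FPKM + 1) scale, in Panc1 and MiaPaCa2, ordered by role, in 1 panel for each line, with bars of 1 standard error, filled points for called genes and a dashed line at the median of all genes. Most Panc1 values lie left of 0, to -0.70, MYC is right of 0 in both lines, and the MiaPaCa2 values are nearer to 0.

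Of the 4 members that belong to RNA polymerase I or work with it, 1 fell in each line. Over all genes, 41.6% fell in Panc1 and 16.3% in MiaPaCa2. TCOF1 (treacle, which supports transcription of ribosomal RNA) fell in Panc1 from 24.3 to 20.6 FPKM (-0.23, adjusted p = 0.00116), a call lost on median-ratio scaling and turned to 0.10 relative to the chromosome median. POLR1A, the largest subunit of the polymerase, did not pass in Panc1 (means of 11 and 10.6 FPKM, adjusted p = 0.467) but fell in MiaPaCa2 from 15.4 to 12.4 FPKM (-0.30, adjusted p = 0.000992). POLR1B, another catalytic subunit, and NOLC1, a chaperone of small nucleolar ribonucleoproteins, did not pass in either line, with log2 differences from -0.10 to 0.05.

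The 3 box C/D proteins parted in Panc1. FBL, the ribose methyltransferase of the particle, read 1621, 1660 and 1674 FPKM in wild-type and 1963, 2023 and 2002 FPKM in knockout Panc1. The knockout libraries were all higher (0.27, SE 0.06, adjusted p = 0.00152), but quantile normalization turned the value to -0.07. NOP58, a scaffold protein of the same particle, read 51.4, 53.6 and 45.3 FPKM in wild-type and 32.4, 30.2 and 30.5 FPKM in knockout Panc1. It fell in every knockout library below every wild-type library (-0.67, SE 0.08, adjusted p = 2.12e-05). NOP56, the other scaffold, averaged 111 and 106 FPKM and did not pass (adjusted p = 0.361). In MiaPaCa2 none of the 3 passed. For NOP58 the difference between the lines passed (-0.51, adjusted p = 0.003), and so it did for FBL (0.34, adjusted p = 0.00434).

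Of the box H/ACA proteins, DKC1, the pseudouridine synthase, fell in Panc1 from 58.1 to 49.4 FPKM (-0.23, adjusted p = 0.0139), but was at 0.12 relative to the median of the X chromosome, and the call was lost without Panc1 wild-type replicate 2. GAR1 fell from 17.5 to 14.6 FPKM (-0.25, adjusted p = 0.00331). NHP2 averaged 101 and 107 FPKM and did not pass (adjusted p = 0.232). In MiaPaCa2 the 3 log2 differences lay between -0.05 and 0.06, and none passed.

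Among the 14 small-subunit factors, 9 fell (64.3%) and 2 rose in Panc1, where 41.6% of all genes fell and 21.8% rose. In MiaPaCa2 3 fell (21.4%) and 1 rose, near the 16.3% of all genes that fell there, while 17.8% rose. UTP15, which acts in the early complex that binds nascent ribosomal RNA, had the lowest level and the largest drop: 4.33, 4.16 and 4.52 FPKM in wild-type against 2.48, 2.10 and 2.30 FPKM in knockout Panc1. No knockout library reached a wild-type library (-0.70, SE 0.05, adjusted p = 4.61e-07), whereas in MiaPaCa2 it averaged 6.52 and 6.57 FPKM (adjusted p = 0.923). UTP20 fell in Panc1 from 9.75 to 6.65 FPKM (-0.49, adjusted p = 4.36e-06). WDR75 (-0.39), UTP4 (-0.25) and WDR43 (-0.23), partners of UTP15 in that complex, also fell in Panc1, WDR43 turning to 0.04 with the correction for GC content and gene length. HEATR1, of the same complex, fell in both lines, from 16.6 to 12.8 FPKM in Panc1 (-0.35, adjusted p = 2.79e-06) and from 22.8 to 19.4 FPKM in MiaPaCa2 (-0.22, adjusted p = 0.000435). NAT10, which acetylates ribosomal RNA, and TSR1, a late factor, fell by 0.20 and 0.22 in Panc1 and passed in MiaPaCa2 in neither case. RRP12 and BYSL, which act in export and maturation of the small subunit, rose in Panc1 by 0.17 and 0.22 (adjusted p = 0.0149 and 0.00763). The RRP12 call was lost without Panc1 wild-type replicate 1 or knockout replicate 3, and on scaling to equal sums.

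For NOP14 and PNO1 the knockout effect differed between the lines. NOP14 (GRCh37, 4:2939660-2965133, minus strand), a factor of the early small-subunit particle, read 20.3, 20.6 and 20.3 FPKM in wild-type and 16.9, 16.2 and 16.4 FPKM in knockout Panc1. In MiaPaCa2 it read 21.0, 21.7 and 21.5 FPKM in wild-type and 24.7, 22.9 and 25.2 FPKM in knockout libraries. It thus fell in Panc1 (-0.29, adjusted p = 7.24e-05) and rose in MiaPaCa2 (0.17, adjusted p = 0.00831), and the lines differed (-0.46, adjusted p = 4.86e-05). PNO1 (GRCh37, 2:68385020-68403370, plus strand) assists NOB1, the nuclease that makes the last cut of small-subunit RNA. In MiaPaCa2 it read 24.2, 26.6 and 26.7 FPKM in wild-type against 17.9, 16.3 and 18.1 FPKM in knockout libraries, without overlap (-0.54, adjusted p = 1.38e-05; difference between the lines 0.60, adjusted p = 3.86e-05). In Panc1 it averaged 19.1 and 19.8 FPKM (adjusted p = 0.402), and NOB1 passed in neither line.

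**Figure D2:**
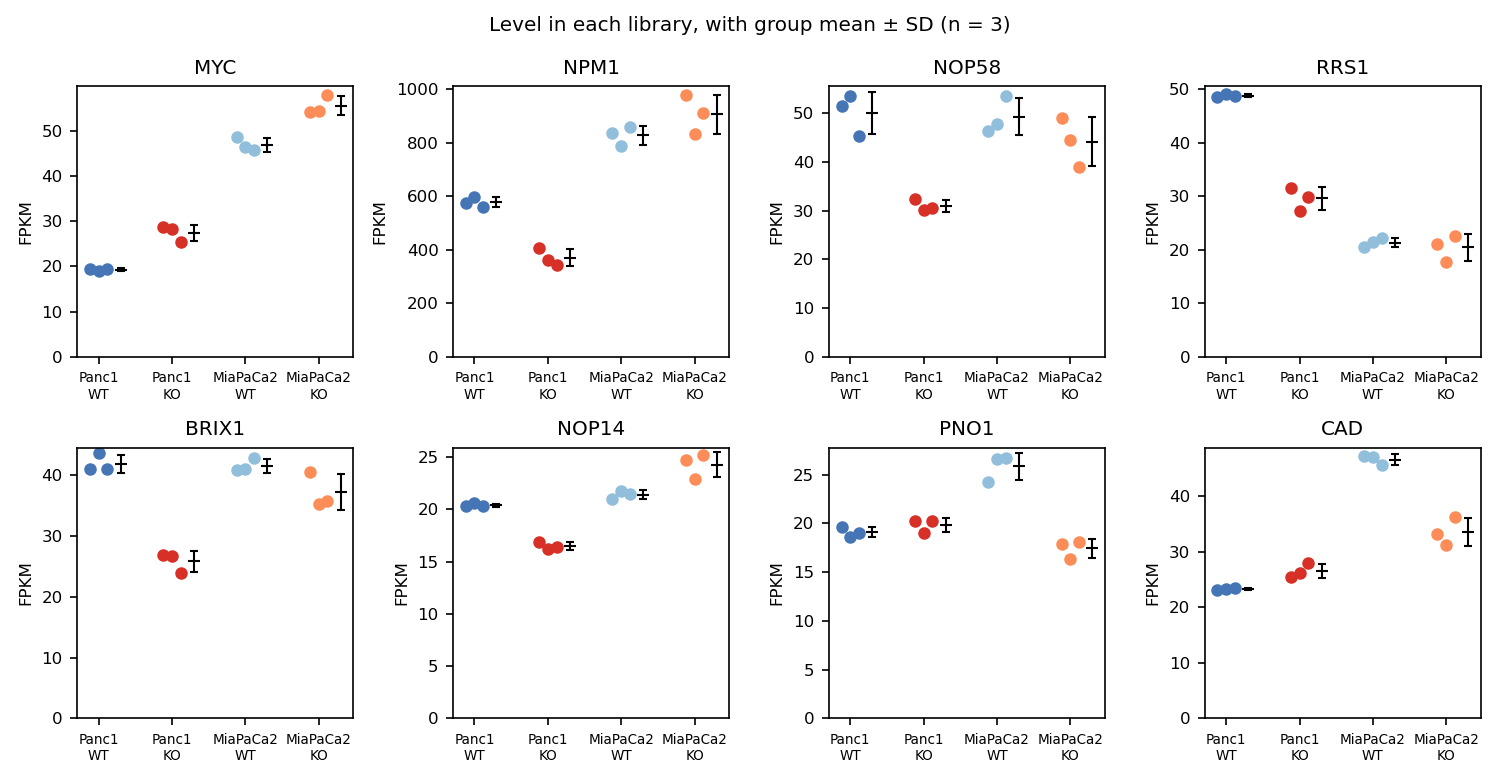
FPKM in each of the 12 libraries for members with contrasting patterns, each dot 1 library, with the group mean ± SD (n = 3) beside it on an axis that starts at 0. MYC is higher in the knockout of both lines, and NPM1, NOP58 and RRS1 are lower in knockout Panc1 than in wild-type Panc1.

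Of the 13 large-subunit factors 9 fell and none rose in Panc1 (41.6% of all genes fell and 21.8% rose). In MiaPaCa2 3 fell and none rose (16.3% and 17.8% of all genes), although MRTO4 was not called in 10 of the alternative fits. RRS1, which helps place a small ribonucleoprotein in the growing large subunit, read 48.6, 49.1 and 48.9 FPKM in wild-type and 31.6, 27.3 and 30.0 FPKM in knockout Panc1. The groups stood well apart (-0.70, SE 0.08, adjusted p = 5.78e-06), while in MiaPaCa2 they overlapped at means of 21.4 and 20.5 FPKM (adjusted p = 0.572). BRIX1, an early assembly factor, fell in Panc1 from 41.9 to 25.9 FPKM (-0.68, adjusted p = 1.30e-06), NOP2, a ribosomal RNA methyltransferase, from 31.7 to 23.8 FPKM (-0.40, adjusted p = 5.99e-06) and the GTPase GNL3 (nucleostemin) from 52.2 to 40.7 FPKM (-0.35, adjusted p = 0.000534). NOP16, DDX18, WDR12, PPAN and RRP1 also fell, by 0.35, 0.31, 0.25, 0.25 and 0.13, the last at an adjusted p of 0.0472 and reversed to 0.03 relative to its chromosome. The RRP1 call held in only 6 of the 17 alternatives, with single libraries left out among the losses. PPAN shares exons with a readthrough transcript, so reads could be split between them. BOP1, a core protein of the large-subunit particle that pairs with WDR12 and PES1, did not pass in Panc1 (-0.06) and fell in MiaPaCa2 from 9.97 to 7.77 FPKM (-0.33, adjusted p = 0.00305). DDX18, a helicase, fell in MiaPaCa2 as well (-0.31, adjusted p = 0.00195).

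All 4 nucleolar proteins with several roles fell in Panc1 (41.6% of all genes did), and NPM1 fell furthest. NPM1 (nucleophosmin), a chaperone of histones and ribosomal proteins, read 576, 598 and 561 FPKM in wild-type and 405, 364 and 343 FPKM in knockout Panc1. All knockout libraries were lower, by 36.0% in the mean (-0.64, SE 0.07, adjusted p = 4.86e-06). In MiaPaCa2 the libraries overlapped at 828 ± 35.0 FPKM (SD, n = 3) in wild-type and 906 ± 73.5 FPKM in knockout (adjusted p = 0.171). The difference between the lines was the largest of all members (-0.77, adjusted p = 3.42e-05). NPM1 has many near-identical processed copies in the genome, so its level is uncertain where the counting could split reads. LYAR fell in both lines, by 0.53 in Panc1 (adjusted p = 9.73e-07) and 0.19 in MiaPaCa2 (adjusted p = 0.00818). NCL (nucleolin) and the helicase DDX21 fell by 0.27 and 0.26 in Panc1 and did not pass in MiaPaCa2, where the differences were -0.09 and -0.07.

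CAD, which carries out the first steps of pyrimidine synthesis and is a classic MYC target, rose in Panc1 and fell in MiaPaCa2. It read 23.1, 23.3 and 23.5 FPKM in wild-type and 25.5, 26.2 and 27.9 FPKM in knockout Panc1 (0.18, adjusted p = 0.0102). In MiaPaCa2 it read 47.3, 47.1 and 45.5 FPKM in wild-type and 33.2, 31.2 and 36.2 FPKM in knockout libraries. The groups did not overlap in either line, and in MiaPaCa2 CAD fell by 0.47 (adjusted p = 4.32e-05). The difference between the lines was 0.64 (adjusted p = 1.99e-05).

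Of the 31 calls in Panc1, 13 held in each of the 17 alternatives run, those of MYC, NOP58, UTP15, UTP20, HEATR1, NOP14, BYSL, RRS1, BRIX1, PPAN, NOP2, NPM1 and LYAR. GAR1, WDR43, NAT10 and WDR12 were each lost under 3 or more of median-ratio scaling, quantile normalization, the chromosome median and the correction for GC content and gene length. WDR75, DDX18, GNL3 and NCL were lost with that correction alone, UTP4 and TSR1 with median-ratio scaling alone, and CAD on scaling to equal sums alone. NOP16 was lost relative to the chromosome median, where it stood at -0.021 (adjusted p = 0.777), and DDX21 there and with the correction for GC content and gene length.

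In knockout MiaPaCa2 fewer members were called. Of the 43 members 9 fell (20.9%) and 2 rose, MYC and NOP14, against 16.3% lower, 17.8% higher and 34.1% either way over all genes. The share that fell lay near the background, and the median was -0.06, against 0.01. Leaving out MiaPaCa2 knockout replicate 2 took the number that rose from 2 to 6, adding NOP56, NHP2, BYSL and NPM1, and the median from -0.06 to 0.00. The share of all genes that rose in that fit is not given here. Calls that held in all 17 alternatives were those of MYC, HEATR1, NOP14, PNO1, BOP1, LYAR and CAD, 7 of 11, and those of POLR1A, WDR43 and DDX18, all on chromosome 2, were lost relative to its median. Groups did not overlap for 15 members, 12 of them lower (43.5% of all genes, 20.5% lower).

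Across both lines 5 members were called the same way (11.3% of all genes were). MYC was higher in both (5% of all genes), and WDR43, HEATR1, DDX18 and LYAR were lower in both (6.34% of all genes). NOP14 and CAD were called in opposite ways (10.1% of all genes). In neither line were 8 members called, and the share of all genes called in neither is not given here. By the test of the difference itself, 23 members differed between the lines, 7 with a higher and 16 with a lower value in Panc1 (57.4% of all genes, 20% higher and 37.4% lower). These were 16.3% and 37.2% of the members, shares not above those of all genes. The counts of members that differed moved with scaling, and median-ratio scaling gave 12 higher and 9 lower. The shares of all genes under that scaling are not given here.

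Other ribosome biogenesis factors, a list of 94 genes outside the members, moved much like the members. In Panc1 53 fell (56.4%) and 11 rose, with a median of -0.22, where 41.6% of all genes fell and 21.8% rose. In MiaPaCa2 19 fell (20.2%) and 6 rose, with a median of -0.02, where 16.3% of all genes fell and 17.8% rose. KRR1, a small-subunit factor, fell in Panc1 from 35.9 to 15.1 FPKM (-1.20), NMD3, which exports the large subunit, from 39.2 to 16.8 FPKM (-1.18), and NOL10 from 9.83 to 4.58 FPKM (-0.96). KRR1 and NMD3 did not pass in MiaPaCa2, with log2 differences of -0.07 and 0.03. Among them were 13 further genes of RNA polymerase I and its factors, of which 8 fell and none rose in Panc1, with a median of -0.38, and 2 fell and 1 rose in MiaPaCa2, with a median of 0.04. TAF1B, of the factor that brings polymerase I to its promoter, fell in both lines, by 0.99 in Panc1 and 0.54 in MiaPaCa2. It lies on chromosome 2, where 44.8% of tested genes were lower in MiaPaCa2, and it averaged under 5 FPKM in both MiaPaCa2 groups. TAF1B and NOL10 share chromosome 2 with the targeted gene ASAP2, and the part of this position in their Panc1 falls was not tested. NOL10 fell by 0.30 in MiaPaCa2, and this call was lost relative to the median of chromosome 2, where it lies (adjusted p = 0.275).

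The ribosomal protein genes, whose products these factors assemble, went the other way. Of 80 genes, 69 rose and 2 fell in Panc1, with a median of 0.33, and 40 rose and 2 fell in MiaPaCa2, with a median of 0.16. Over all genes, 21.8% rose and 41.6% fell in Panc1, and 17.8% rose and 16.3% fell in MiaPaCa2. The direction of the median held on each scaling run, though quantile normalization left 45 higher and 10 lower in Panc1. Their summed level was 45302 ± 396 FPKM (SD, n = 3) in wild-type and 58241 ± 911 FPKM in knockout Panc1. The 43 members summed to 3693 ± 45.4 and 3650 ± 34.1 FPKM in the same libraries, a sum that FBL dominated, and without FBL to 2041 ± 46.0 and 1654 ± 57.1 FPKM. RPL13 rose in Panc1 from 84.2 to 140 FPKM (0.73), and RPS7, on chromosome 2 like ASAP2, fell from 372 to 236 FPKM (-0.66). In MiaPaCa2 the sum was 54719 ± 2344 FPKM in wild-type against 59792 ± 2401 FPKM in knockout, ranges that overlapped, and RPS27A, also on chromosome 2, fell from 381 to 293 FPKM (-0.38). Ribosomal protein genes have many processed copies, so their levels are uncertain in the same sense as that of NPM1. Of 16 genes of cell division, 11 fell and 1 rose in Panc1 (median -0.34), and 9 fell and none rose in MiaPaCa2 (median -0.23, where that of the members was -0.06). Their part in the results was not tested.

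**Figure D3:**
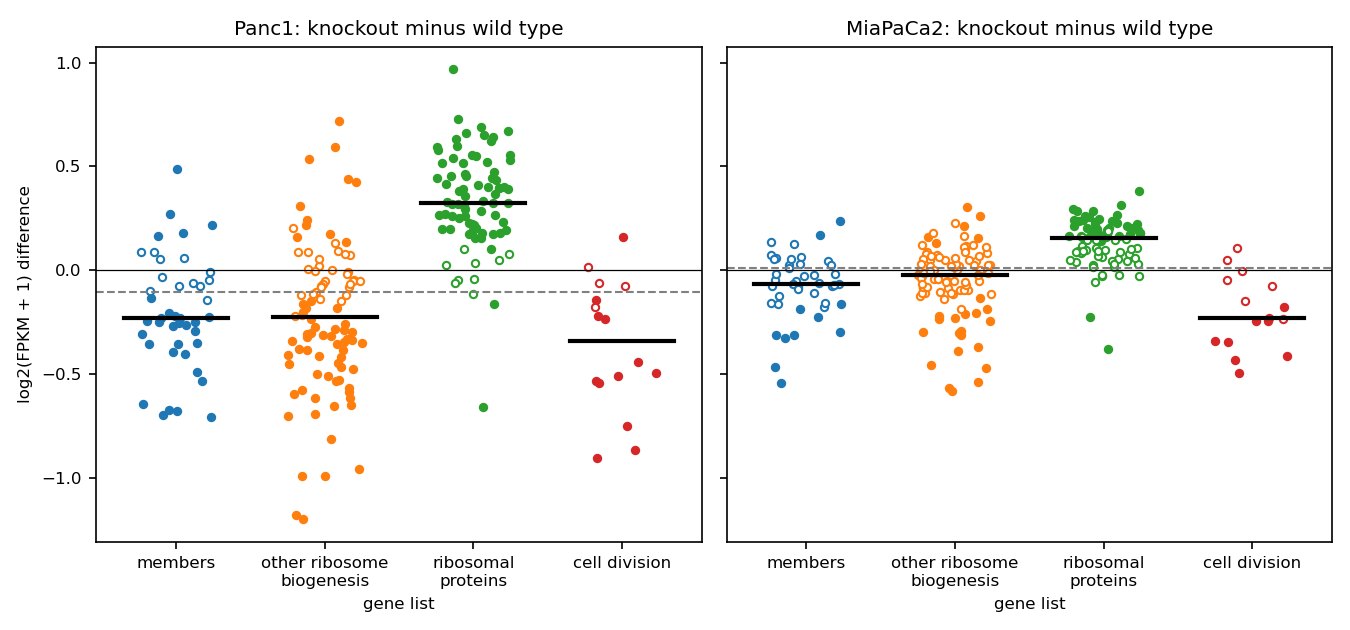
Knockout minus wild-type differences on the log2(FPKM + 1) scale for the 43 members, the other biogenesis factors, the ribosomal proteins and the cell division genes, with 1 panel for each line, each point 1 gene (filled where called), a bar at the list's median and a dashed line at the median of all genes. The members and other biogenesis factors centre near -0.22 in Panc1, and the ribosomal proteins near 0.33.

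Some of the members that fell in MiaPaCa2 are on 1 chromosome. Of the 43, 10 lie on chromosome 2, where all 788 tested genes had a median of -0.15 in MiaPaCa2 and 44.8% were lower, against 0.02 and 15.0% elsewhere. Of the 10 members on chromosome 2, 5 fell, with a median of -0.24, and of the other 33, 4 fell and 2 rose, with a median of -0.05. The tested neighbours of PNO1 within 2.5 Mb had a median of -0.46 in MiaPaCa2, close to PNO1 itself (-0.54). Those of CAD and WDR43, whose windows overlap, stood at -0.23. Around the other members that fell there, medians were -0.18 for DDX18 and -0.03 for POLR1A, both on chromosome 2. On other chromosomes they were -0.02 for BOP1, 0.01 for MRTO4, 0.03 for LYAR and 0.06 for HEATR1. In Panc1, where 41.6% of all genes fell, the 557 tested genes of chromosome 5 had a median of -0.28. Of the 6 members there 5 fell, namely TCOF1, UTP15, BRIX1, NOP16 and NPM1. The median was -0.30 on the X chromosome, where DKC1 lies, and -0.10 on chromosome 2, where 6 of 10 members fell. The neighbours of UTP15 in Panc1 had a median of -0.48, those of UTP20 -0.43 and those of RRS1 -0.32, while those of NPM1 stood at -0.04. For the other members whose fall held in every alternative, medians were -0.29 (BRIX1), -0.21 (HEATR1), -0.20 (NOP58), 0.005 (NOP2), 0.01 (NOP14), 0.02 (PPAN) and 0.03 (LYAR). DNA was not measured in these libraries, and the part of copy number in these values was not tested.

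Most members that differed between the wild-type lines were lower in Panc1, while the share that differed was near that of all genes. Wild-type Panc1 was lower than wild-type MiaPaCa2 in 32 of 43 and higher in 5 (82.7% of all genes were called, 40.9% lower and 41.8% higher), and the median of the members was -0.42, against 0.00 for all genes. The groups did not overlap for 38 members (84.9% of all genes). MYC, UTP4, NOB1, RRP1, NIP7 and NOP2 were called and at least 2-fold lower in Panc1 on the log2(FPKM + 1) scale (10.2% of all genes), and FBL and RRS1 at least 2-fold higher (24.9% of all genes were called and at least 2-fold either way). FBL stood at 1652 ± 27.4 FPKM (SD, n = 3) in wild-type Panc1 and 140 ± 0.421 FPKM in wild-type MiaPaCa2, an 11.8-fold ratio of FPKM and the largest of the members. As ratios of FPKM, NAT10 (40.6 FPKM in MiaPaCa2 and 19.9 FPKM in Panc1) and CAD (46.6 and 23.3 FPKM) were also lower by 2-fold or slightly more.

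Both ends of this range lay in runs of genes that moved together, which were singled out after the values were seen. FBL is at GRCh37 19:40325098-40337019, minus strand. All 20 other tested genes within 0.5 Mb of it were higher in wild-type Panc1, 19 of them at least 2-fold, with a median log2 difference of 3.36. Its neighbour RPS16 stood at 6829 and 674 FPKM in the wild-type lines. NIP7, NOB1 and UTP4 lie close together on chromosome 16 (GRCh37, 16:69371899-69377009, 16:69775774-69788829 and 16:69165194-69265033), and were lower in Panc1 by 1.41, 1.47 and 1.14. Of the 14 other tested genes within 0.5 Mb of NIP7, 13 were lower, with a median of -1.11, and 76 of 94 within 5 Mb. The tested neighbours within 2.5 Mb of RRP1 and NOP2 had medians of -0.81 and -0.82, and all tested genes of chromosome 21, where RRP1 lies, -0.75. Around RRS1 the median was 0.64, and around MYC that of its 3 neighbours was 1.17, the other way from MYC itself. Whether copy number differs at any of these places was not tested.

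**Figure D4:**
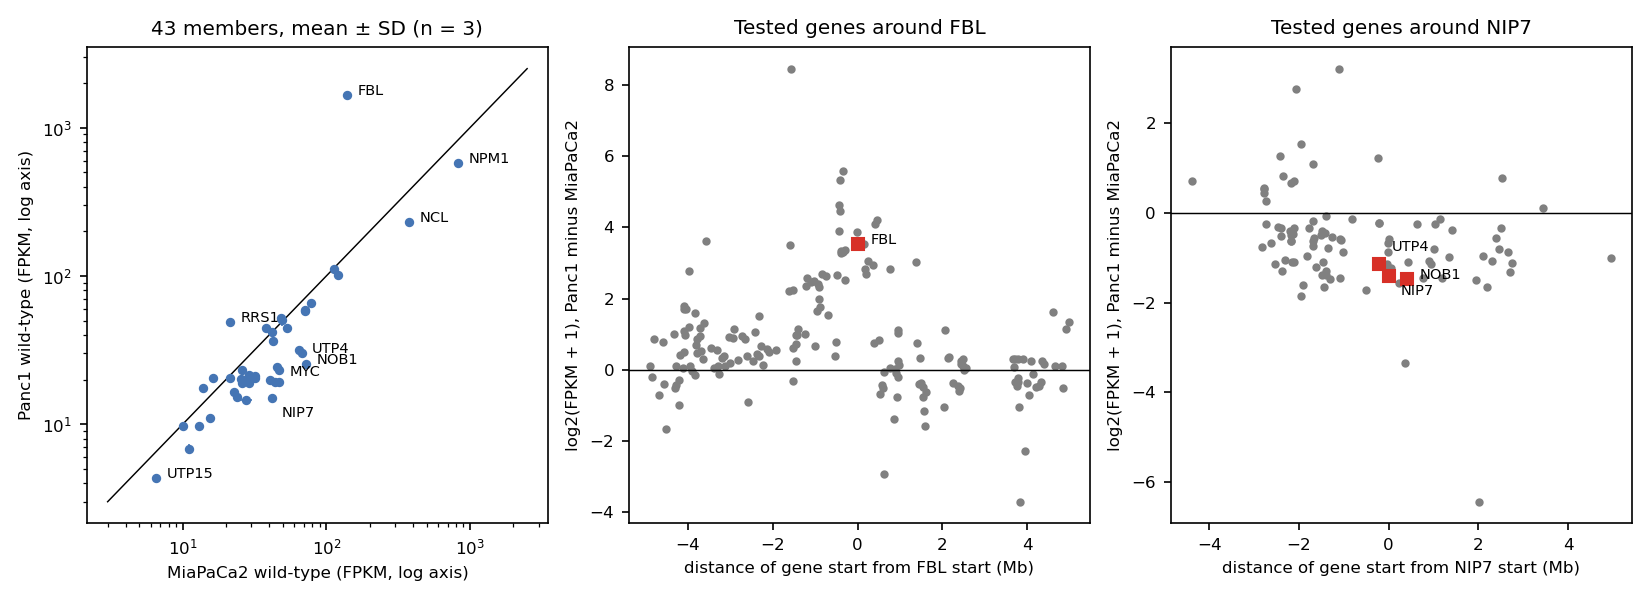
Left, mean FPKM ± SD (n = 3) of each of the 43 genes in wild-type Panc1 against wild-type MiaPaCa2 on logarithmic axes with the line of equality; centre and right, the log2(FPKM + 1) difference of the wild-type lines for tested genes within 5 Mb of FBL and of NIP7, by distance in Mb, members as squares. FBL (1652 FPKM in Panc1) stands far above the line with its neighbours, and NIP7, NOB1 and UTP4 lie below 0 with most of theirs.

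Small nucleolar RNAs lie in introns of 8 members (20 in all, by GENCODE annotation), namely NOP56, NOP58, DKC1, WDR43, TSR1, PPAN, GNL3 and NCL. In Panc1 7 of these hosts fell, all but NOP56, and in MiaPaCa2 1 did, WDR43, beside 41.6% and 16.3% of all genes. The files do not say whether reads of the small RNAs themselves were kept. Of the members 19 overlap an annotated gene on the other strand, and no source states whether counting used the strand, so such pairs cannot be told apart.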

How the data were processed

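RNA-seq of 12 libraries was used, 3 in each of 4 groups. The labels' protocols name total RNA and a BGISEQ-500 sequencer. Per the submitters' processing notes, reads were aligned to hg19 with TopHat2 2.0.14, and the deposited FPKM, 1 value per gene symbol, came from STAR 2.5.2a. Read number, strandedness and the handling of multi-mapping reads: not given in the sources used here. Without counts, no count test was run.

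From the FPKM values that the authors deposited, log2(FPKM + 1) was computed and fitted with limma 3.58.1 in R 4.3.3, with 1 mean per group, a mean-variance trend, 8 residual degrees of freedom and two-sided tests. Benjamini-Hochberg adjustment ran over 13340 genes, those averaging 1 FPKM or more across the 6 libraries of either line, and calls were made where adjusted p was under 0.05. The script was tested on simulated data. Gene positions came from GENCODE mapped to GRCh37 (92.2% of tested genes), promoters from RefSeq (GRCh38.p14).

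The members and the lists were chosen with earlier results of these data known. All 43 members may be named. Of each other list, the rule names the 3 called genes with the largest change in each knockout contrast and 5 FPKM or more on average in the higher group, plus MAX, MXI1 and ASAP2; RPS16, near FBL, was chosen after its values were seen. Some genes that the rule gives are not reported here. Alternatives were pseudocount 0.1, no filter, a filter of 5 FPKM, scaling to equal sums (the TPM scale), by the median ratio or by quantiles, no trend, each line alone, a replicate block, values relative to the chromosome median, a correction for GC content and gene length, and each library left out in turn. Deviations of libraries with the same replicate number correlated at 0.017 to 0.078 in Panc1 and at -0.165 to -0.0019 in MiaPaCa2, so the numbers were not taken to pair them.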

Additional observations from a re-analysis of the deposited data

Results flagged for a closer look

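For 23 of the 43 members the knockout effect differed between the lines, by the test of the difference itself (Panc1 log2 difference minus MiaPaCa2 log2 difference, limma, Benjamini-Hochberg adjustment over all genes, of which 57.4% passed). Of the members 37.2% were lower and 16.3% higher, against 37.4% and 20% of all genes, so members did not differ more often than genes at large. The larger differences on the negative side, lower in knockout Panc1 relative to MiaPaCa2, were those of NPM1 (-0.77), UTP15 (-0.71), RRS1 (-0.64), UTP20 (-0.55), BRIX1 (-0.52), NOP58 (-0.51), NOP14 (-0.46) and NOP2 (-0.46). Smaller ones were those of LYAR (-0.35), NOP16 (-0.33), UTP4 (-0.28), PPAN (-0.27), GAR1 (-0.23), WDR12 (-0.22), TCOF1 (-0.17) and HEATR1 (-0.13). On the positive side stood CAD (0.64), PNO1 (0.60), FBL (0.34), BOP1 (0.27), MYC (0.25), POLR1A (0.25) and MRTO4 (0.22). Several of these calls were lost in many of the 22 alternatives: the call held in 6 for TCOF1 and for HEATR1, 8 for GAR1, 10 for WDR12, 11 for MRTO4 and 13 for BOP1, with single libraries left out among the losses. Those of MYC, UTP15, UTP20, NOP14, PNO1, RRS1, NOP2, NPM1 and CAD held in all 22. MYC rose in both lines and LYAR fell in both. For NOP14 and CAD the calls in the lines were opposite.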

How the results depend on the processing

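The direction of the member medians in both knockout contrasts was the same under every scaling, and the counts depended on it. In Panc1 the members that rose numbered 5, but 3 on the TPM scale, 9 with median-ratio scaling and 10 relative to the chromosome median, where those that fell numbered 17 in place of 26. Shares of all genes also moved with the setting, as given above for median-ratio scaling and the chromosome median in Panc1. For the other settings they are not given here, so these counts are not read as results about the members alone. In MiaPaCa2 those that rose numbered 4 with quantile normalization and 4 relative to the chromosome median, and the correction for GC content and gene length gave 17 calls, 14 of them lower. For the difference between the lines, the lower calls numbered 25 on the TPM scale, 9 with median-ratio scaling and 10 after the correction for GC and length, and the higher calls 12 with median-ratio scaling and 11 relative to the chromosome median. Reversed values relative to the chromosome median were those of TCOF1 (0.10), DKC1 (0.12), BOP1 (0.19) and RRP1 (0.027) in Panc1, of WDR12 (0.19) in MiaPaCa2, and of TCOF1 (0.23) and NOP16 (0.063) for the difference between the lines. With the GC and length correction WDR43 was at 0.042 in Panc1, and HEATR1 (0.12) and WDR12 (0.063) reversed for the difference. HEATR1 stood at 0.0026 for the difference with median-ratio scaling. With quantile normalization FBL was at -0.074 in Panc1 and -0.063 for the difference. The cause was not tested in any of these.

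With 1 library left out, so that the smaller group borrows its spread from the rest, Panc1 gave 29 to 31 calls (24 to 26 lower, 4 to 5 higher), MiaPaCa2 10 to 14 (8 to 11 lower, 2 to 6 higher, the 6 without MiaPaCa2 knockout replicate 2), the difference 17 to 26 (12 to 21 lower, 5 to 8 higher), the wild-type lines 36 to 37 (31 to 32 lower, 5 higher), and 5 to 7 members went the same way in both lines. With the replicate number as a block, although the numbers were not taken to pair libraries, 5 members rose and 25 fell in Panc1, 2 rose and 8 fell in MiaPaCa2, and 20 differed between the lines. The shares of all genes in these fits are not given here, so the counts show only how the calls depend on the fit. Read depth is unknown, so no interval for counting error can be given.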
